A study of Mus musculus with 2 samples.

Results

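The primary microcephaly genes are those in which inherited loss of function leaves the human brain small at birth with an otherwise largely preserved architecture. Most of their products work at the centrosome or the mitotic spindle of dividing neural progenitors: they build and duplicate centrioles, recruit the surrounding material that nucleates microtubules, focus the spindle poles, attach chromosomes to the spindle or complete the separation of daughter cells. In the embryonic cortex these divisions are carried out by radial glial cells (RGCs) at the ventricle and by the intermediate progenitors (IPCs) derived from them, while the ganglionic eminences hold the progenitors of inhibitory neurons. Here, 10 of these genes were followed by symbol in the 32285 genes of the deposited tables: Aspm, Mcph1, Wdr62, Cdk5rap2, Cenpj, Stil, Cep152, Cep135, Knl1 and Kif14. All 10 symbols were found. In RefSeq on GRCm38.p6, the build given in the submitters' notes as mm10, they are protein-coding genes at chr1:139454188-139494088 (Aspm), chr8:18595116-18808089 (Mcph1), chr7:30240138-30281908 (Wdr62), chr4:70216855-70410435 (Cdk5rap2), chr14:56526761-56575489 (Cenpj), chr4:115000108-115043203 (Stil), chr2:125549864-125625174 (Cep152), chr5:76588653-76646466 (Cep135), chr2:119047119-119110497 (Knl1) and chr1:136466301-136555938 (Kif14). Angpt2, an endothelial gene, overlaps Mcph1, and Thap8 overlaps Wdr62, so reads there could be split between them.

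The data are single-cell transcriptomes of the dorsal telencephalon of mouse embryos at embryonic day 16.5, 2 libraries labelled WT (WT replicate 1 and WT replicate 6). The series was designed around a conditional knockout of the histone methyltransferase Dot1l driven by Emx1-Cre, which acts in dorsal cortical progenitors and their offspring. The knockout was not analysed here, and the labels do not say whether the WT embryos carried Cre or floxed alleles. The methods name C57BL6/J as the strain. The libraries held 14136 and 13046 cells and 74930397 and 68964234 unique molecular identifiers (UMIs, each standing for a captured RNA molecule), and 8139 and 8209 cells passed the limits of 1500 to 60000 UMIs and under 10% mitochondrial UMIs. Of the cells that passed, 26 carried a barcode found in both libraries. The X-linked transcript Xist had 76258 UMIs in the former library and 10 in the latter, so they differed in the sex of the tissue. Each class below has n = 2 libraries, within which sex and library cannot be told apart.

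Cells were assigned to classes by marker genes that include none of the 10 genes. RGCs carried at least 5 of 10 markers such as Pax6, Hes5 and Slc1a3, and no UMI of Eomes. IPCs carried at least 2 UMIs of Eomes and 3 of 7 markers, eminence progenitors at least 2 UMIs of Dlx1 or Dlx2 and 3 of 7 markers, and neurons at least 4 of 10 excitatory or inhibitory markers. Progenitors were called cycling when 45 genes of S phase and G2/M made up at least 25 of 10000 UMIs. This gave 169 and 179 cycling RGCs, 96 and 98 non-cycling RGCs, 82 and 76 cycling IPCs, 168 and 212 non-cycling IPCs, 206 and 200 cycling eminence progenitors, and 71 and 54 non-cycling eminence progenitors, with 2429 and 2733 excitatory and 1311 and 1257 inhibitory neurons. The RGC markers summed to 114 to 162 per 10000 UMIs in RGCs and to 2.51 to 2.55 in excitatory neurons. The non-cycling eminence progenitors also carried the inhibitory neuron markers at 108 and 94.7 per 10000 UMIs, close to the 98.9 and 115 of inhibitory neurons, while the cycling ones carried 29.0 and 23.6. The gate therefore holds cells with a neuronal profile, and its non-cycling class was not taken as a pure progenitor class. Cells near the cycling limit, with 20 to 30 per 10000, were few: 19 and 16 of the RGCs, 13 and 8 of the IPCs and 8 and 11 of the eminence progenitors.

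The share of each transcript that lay in cells past the cycling limit, counted over all cells that passed, ran from 30.3% to 95.4% on average. These cells held 18.9% and 17.9% of all UMIs in WT replicate 1 and WT replicate 6. They held 95.3% ± 0.37 (SD, n = 2 libraries) of the UMIs of Aspm, which encodes a protein of the spindle poles, 95.4% ± 0.80 of Kif14, a mitotic kinesin of the midbody, 94.7% ± 0.94 of Knl1, a scaffold of the outer kinetochore, and 93.1% ± 2.08 of Stil, which is required for new centrioles to form. Wdr62, a spindle pole protein, followed with 73.3% ± 0.62. For Cep152, which recruits the duplication kinase Plk4 to the centriole, the share was 46.5% ± 2.99. The shares of Cenpj, which sets centriole length (39.9% ± 0.14), Cep135, a centriole structural protein (39.9% ± 1.61), Cdk5rap2, which anchors microtubule nucleation at the centrosome (34.9% ± 1.81), and Mcph1, which acts on chromosome condensation and the entry into mitosis (30.3% ± 0.15), were lower. All 10 shares lay above the share of all UMIs in both libraries. How many other genes lie above it was not counted. The division of the genes used below, into Aspm, Wdr62, Stil, Knl1 and Kif14 and the 5 others, was made after these values were seen. The UMIs of a gene in all cells that passed ran from 284 and 244 for Wdr62 to 5125 and 5037 for Cdk5rap2.

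**Figure D1:**
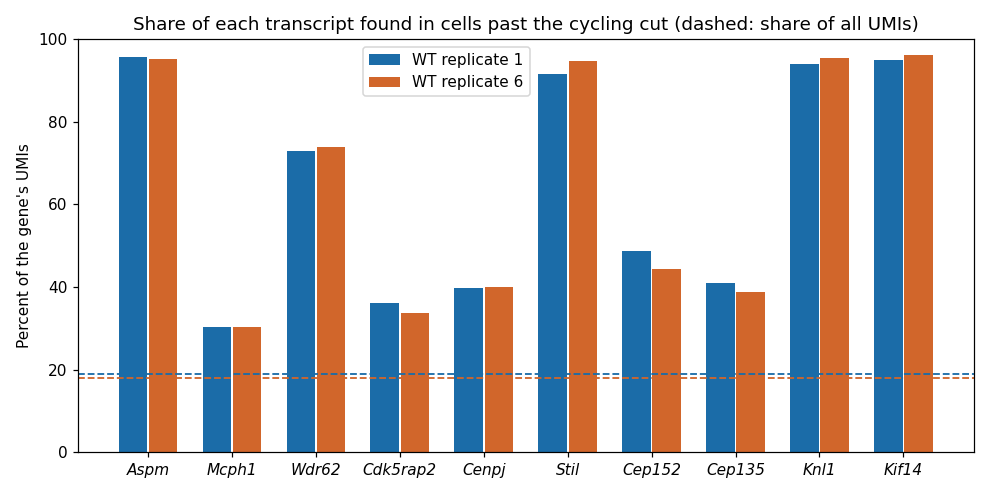
Bars give the percent of each gene's UMIs that lay in cells past the cycling limit, for WT replicate 1 and WT replicate 6 separately, and the dashed lines give the same percent for all UMIs (18.9% and 17.9%). Aspm, Stil, Knl1 and Kif14 stand at 91.6% or more in both libraries, Wdr62 at 72.9% and 73.8%, and the other 5 genes between 30.2% and 48.6%.

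The first comparison asked whether the transcripts differ with the cycling state within radial glia. All 10 genes were higher in cycling than in non-cycling RGCs (edgeR quasi-likelihood test on UMI sums per library, adjusted p under 0.05 over 10658 genes), against 8.72% of all genes tested that were higher. The median log2 difference of the 10 genes was 3.34, beside a median of -0.004 over all genes tested. It falls in a gap between genes with smaller and genes with larger differences, given below, so it describes no single gene. Genes with low counts in both classes were not tested. Aspm, Wdr62, Stil, Knl1 and Kif14 had only 0 to 4 UMIs per library in non-cycling RGCs. They passed this filter through the cycling class, so their calls could hardly have gone the other way. The same holds for such genes in the further comparisons of cycling state and phase. Levels below are in CPM, a gene's UMIs scaled to the total of its summed class and library.

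Aspm stood at 170 and 165 CPM in cycling RGCs of WT replicate 1 and WT replicate 6 and at 2.37 and 3.58 CPM in non-cycling RGCs, where it rested on 2 and 3 UMIs. The log2 difference was 5.80 ± 0.29 (SE, adjusted p = 2.09e-07, edgeR), and over both libraries the ratio was 56.2, with a 95% counting interval from 23.9 to 174. Knl1 behaved likewise, with 233 and 198 CPM against 4.74 and 1.19 CPM (log2 difference 6.17 ± 0.33, adjusted p = 2.95e-07, edgeR). Both genes were thus high in both libraries of cycling RGCs and near the counting limit in non-cycling ones, with no overlap.

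Kif14 had 102 and 68 UMIs in cycling RGCs (55.6 and 35.9 CPM) and no UMI in any of the 194 non-cycling RGCs. Against the limit that a count of 0 allows, 3 counts over both libraries, Kif14 was at least 25.5-fold higher in cycling RGCs (adjusted p = 7.53e-05, edgeR). Stil stood at 59.4 and 45.3 CPM against 1.19 and 3.58 CPM, a log2 difference of 4.44 ± 0.44 (adjusted p = 3.43e-05, edgeR). Wdr62 was low throughout, with 28 and 26 UMIs in cycling RGCs and 0 and 1 in non-cycling RGCs, and its ratio of 24.3 carried a counting interval from 4.18 to 978. Its call (adjusted p = 0.00268, edgeR) was lost with DESeq2 (adjusted p = 0.0626).

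The other 5 genes were also counted in both libraries of non-cycling RGCs, on 2 to 48 UMIs per gene and library. Cdk5rap2 stood at 140 and 140 CPM in cycling and 43.9 and 57.3 CPM in non-cycling RGCs (ratio 2.77 with a counting interval from 2.20 to 3.53, adjusted p = 0.000159, edgeR). Mcph1 stood at 83.4 and 67.5 CPM against 33.2 and 31.1 CPM (log2 difference 1.26 ± 0.22, adjusted p = 0.00228, edgeR). Neither gene's libraries overlapped between the classes. Cenpj stood at 31.6 and 30.6 CPM against 7.12 and 9.56 CPM (1.92 ± 0.34, adjusted p = 0.00248, edgeR). Cep135 stood at 49.6 and 38.5 CPM against 22.5 and 20.3 CPM (1.07 ± 0.26, adjusted p = 0.0175, edgeR), a call lost with DESeq2 (adjusted p = 0.197) and without the filter on low counts (adjusted p = 0.0640). Cep152 stood at 32.2 and 23.7 CPM against 9.49 and 2.39 CPM (2.24 ± 0.47, adjusted p = 0.00709, edgeR), with only 8 and 2 UMIs in the non-cycling cells, and its call was lost without that filter (adjusted p = 0.0554).

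**Figure D2:**
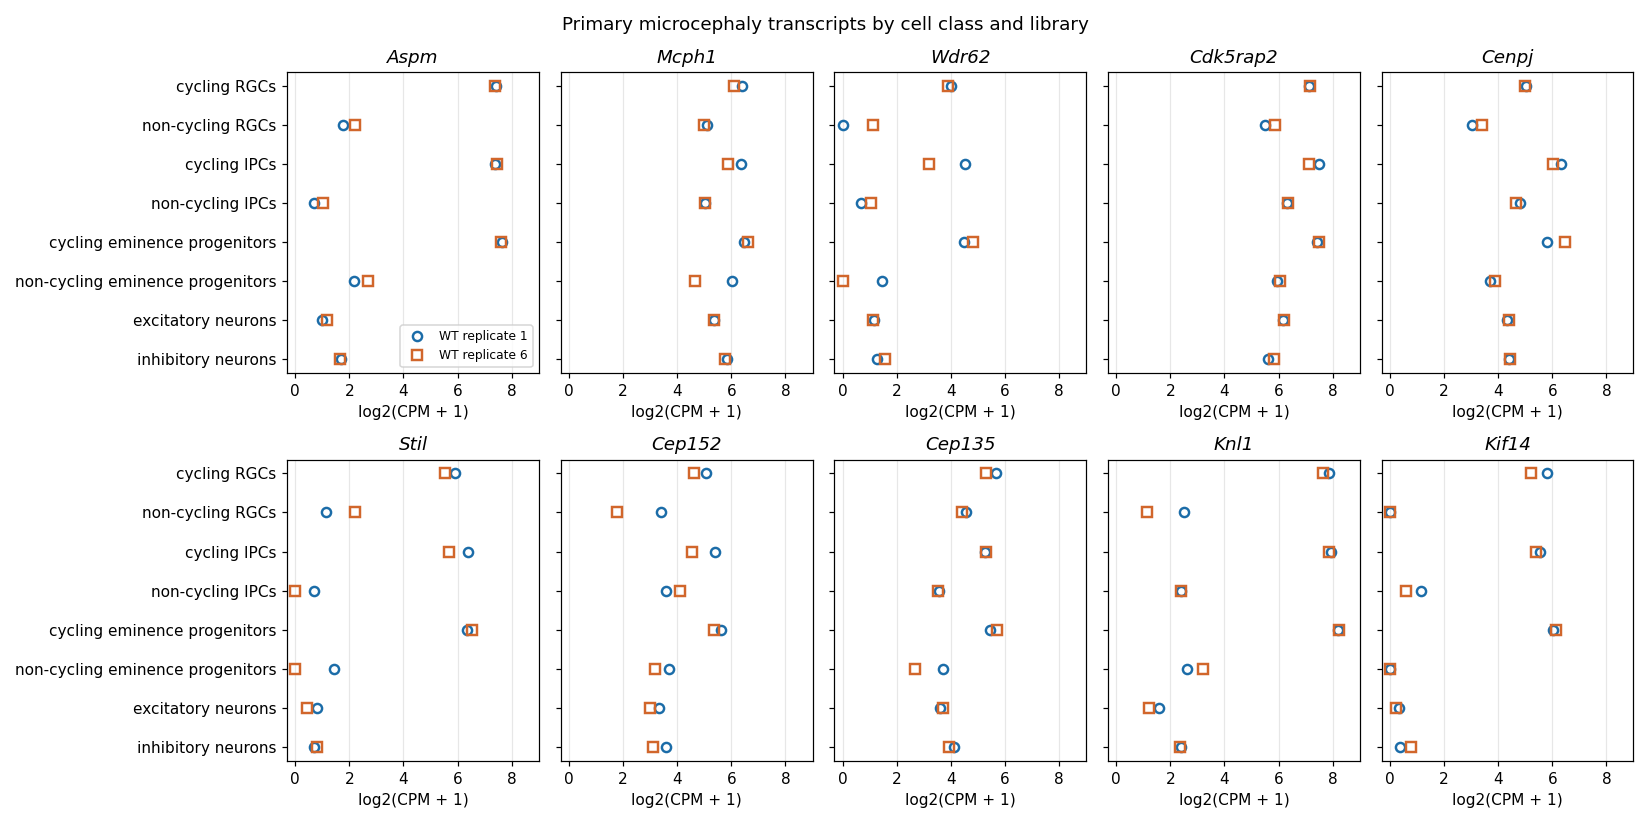
Each panel shows a gene's level, as log2(CPM + 1), in the 8 cell classes of WT replicate 1 (circles) and WT replicate 6 (squares). Aspm, Wdr62, Stil, Knl1 and Kif14 drop towards 0 outside the 3 cycling classes, while Mcph1, Cdk5rap2, Cenpj, Cep152 and Cep135 were counted in every class of both libraries. In WT replicate 6, Cep152 in non-cycling RGCs and Cep135 in non-cycling eminence progenitors rest on only 2 UMIs each.

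Shares of cells with at least 1 UMI, taken after thinning each cell to 2000 UMIs, gave the same order for Aspm. Below this depth, 1 cycling RGC, 6 non-cycling RGCs and 59 excitatory neurons were left out. For Aspm, 19.99% ± 4.56 (SD, n = 2 libraries) of thinned cycling RGCs held a UMI, against 1.06% ± 0.02 of non-cycling RGCs and 0.28% ± 0.19 of excitatory neurons, postmitotic cells taken as the background. Unthinned, 42.8%, 2.57% and 0.89% of the cells held a UMI. The median cell had 10229 and 9763 UMIs among cycling RGCs, 8690.5 and 8837.5 among non-cycling RGCs and 8686 and 7856 among excitatory neurons. For Mcph1 the thinned shares lay closer together, at 10.7% ± 0.89, 7.97% ± 0.63 and 7.17% ± 0.47.

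The same comparison within IPCs again placed all 10 genes higher in cycling cells (adjusted p under 0.05, edgeR), where 14.2% of the 10209 genes tested were higher. Aspm stood at 164 and 176 CPM in cycling and 0.61 and 1.05 CPM in non-cycling IPCs, and Stil at 81.8 and 50.5 CPM against 1 UMI in 380 cells. Knl1 stood at 243 and 229 CPM against 4.24 and 4.22 CPM, and Kif14 at 45.9 and 41.1 CPM against 1.21 and 0.53 CPM. These 4 genes were again present almost only in the cycling class. Wdr62 had 24 and 7 UMIs in cycling and 1 and 2 UMIs in non-cycling IPCs, a ratio of 18.9 with a counting interval from 5.90 to 96.6. The log2 differences of the more widely expressed genes were 1.88 ± 0.28 for Cep135, 1.53 ± 0.21 for Cenpj, 1.29 ± 0.34 for Cep152, 1.21 ± 0.22 for Mcph1 and 1.08 ± 0.16 for Cdk5rap2. For Cep152 the difference was 1.94 within WT replicate 1 and 0.49 within WT replicate 6, and its call (adjusted p = 0.0120, edgeR) was lost with DESeq2 (adjusted p = 0.111).

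In eminence progenitors all 10 genes were likewise higher in the cycling cells (adjusted p under 0.05, edgeR), with 12.1% of 10368 genes higher. Knl1 reached 290 and 297 CPM there, Aspm 200 and 191 CPM and Stil 80.3 and 91.0 CPM. Kif14 had 156 and 147 UMIs in cycling cells and none in the 125 non-cycling cells, so it was at least 21.1-fold higher in the former. The smallest difference was that of Mcph1, 0.98 ± 0.30 (adjusted p = 0.0374, edgeR), which was 0.48 within WT replicate 1 and 2.01 within WT replicate 6 and whose call was lost with DESeq2 (adjusted p = 0.115) and with 1 more class marker required (adjusted p = 0.107). The non-cycling class of this comparison carried the neuronal markers given above, and their part in the differences was not tested.

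**Figure D3:**
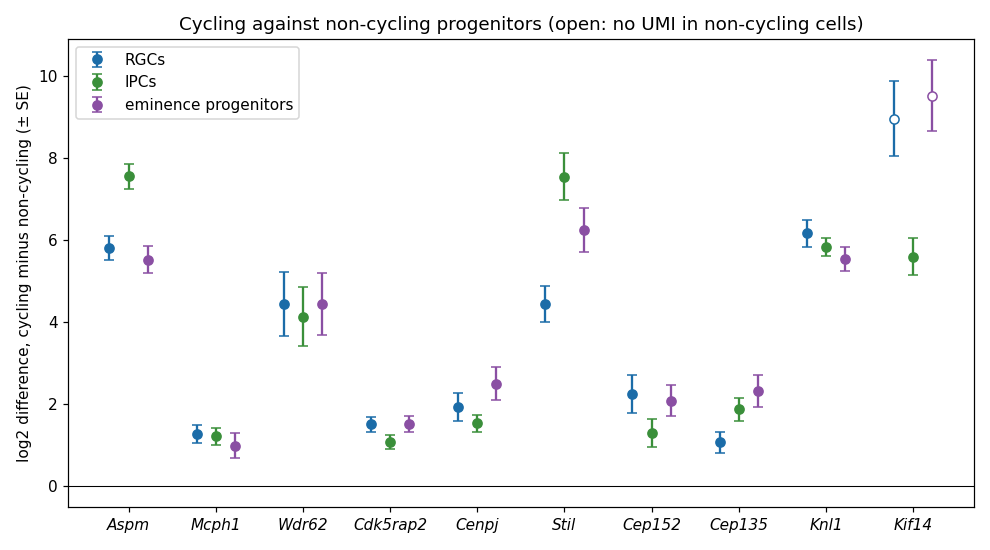
Points give the log2 difference between cycling and non-cycling cells from edgeR, with its standard error, for RGCs, IPCs and eminence progenitors, and open points mark Kif14 where the non-cycling class held no UMI, so that the fitted value depends on the prior count. Every point lies above 0, with Aspm, Stil, Wdr62, Knl1 and Kif14 above 4 and the other 5 genes between 0.98 and 2.49.

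Whether the cycling difference itself was different in RGCs and IPCs was tested by an interaction term. None of the 10 genes was called (edgeR), where 0.353% of 11342 genes were, and none was called by DESeq2 either. At an unadjusted p under 0.05 there were 2 genes, Stil (-3.13 ± 1.36, RGCs minus IPCs) and Cep135 (-0.84 ± 0.38), with adjusted p of 0.462 and 0.498 (edgeR).

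Lists of functionally related genes, counted in the same comparison in RGCs, showed where these differences stood among their partners. They are read beside the 8.72% of all genes tested that were higher there and the median log2 difference of -0.004 over all genes. All 13 kinetochore and checkpoint partners of Knl1 were higher in cycling RGCs, with a median log2 difference of 4.07, led by Nuf2, a subunit of the Ndc80 complex (6.93 ± 0.48), and the checkpoint kinase Bub1b (5.92 ± 0.35). All 8 midbody and cytokinesis partners of Kif14 were higher (median 4.94), led by the abscission protein Cep55 (7.04 ± 0.48) and the cytokinesis regulator Ect2 (5.91 ± 0.36), as were all 8 condensin subunits (median 3.35), led by Ncapg (6.81 ± 0.50) and Ncaph (4.61 ± 0.41). Of 19 genes of centriole duplication and pericentriolar material, 11 were higher and 8 were not called (median 1.25). The largest differences there were those of Poc1a, a centriole stability protein (3.43 ± 0.65), and Plk4, the kinase that starts centriole duplication (2.91 ± 0.27). Of the 11 genes of the spindle pole and spindle orientation, 10 were tested, and 3 were higher (median 0.30), among them Sapcd2 (4.41 ± 0.41) and the dynein regulator Nde1 (2.38 ± 0.20). Of 20 other primary microcephaly genes, 18 were tested, 11 were higher and none was lower (median 1.83), led by the checkpoint kinase Bub1 (5.48 ± 0.38) and the kinetochore motor Cenpe (5.29 ± 0.31), both of which also stand in the kinetochore list. Ncaph, Ncapd2 and Ncapd3 likewise stand in this list and among the condensins, Cit also among the midbody genes and Sass6 also among the centriole genes. A call of such a gene is counted in both of its lists, so the counts are not independent. Several of the leading genes were nearly absent from non-cycling RGCs. Nuf2 had 1 and 0 UMIs there, Bub1b 1 and 2, Cep55 0 and 1, and Ncapg 0 and 1. Such genes passed the filter on low counts through the cycling class, so their calls could hardly have gone the other way. The counts of higher genes in these lists carry that limit, and the fitted differences of such genes depend on the prior count. The lists were chosen with earlier results of these data known.

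Cycling cells were then divided into those with more S phase than G2/M gene UMIs (S-led) and those whose G2/M gene UMIs were at least 4 times the S phase UMIs (G2/M-led). The remaining cycling cells were in neither class, and none of the 10 genes served to set the phase. In RGCs (51 and 51 S-led, 87 and 89 G2/M-led cells), 4 of the 10 genes were higher in the G2/M-led cells, against 3.5% of 8765 genes. Aspm stood at 268 and 308 CPM in G2/M-led and 7.73 and 7.34 CPM in S-led RGCs (log2 difference 5.22 ± 0.29, adjusted p = 3.51e-08, edgeR). Kif14 stood at 90.8 and 57.1 CPM against 3.87 and 1.84 CPM, or 2 and 1 UMIs (ratio 26.5, counting interval 8.91 to 130, adjusted p = 2.81e-05, edgeR). Both genes were thus low in the S-led cells of each library, which held 4 and 4 UMIs of Aspm. Knl1 stood at 338 and 294 CPM against 40.6 and 53.2 CPM (2.74 ± 0.22, adjusted p = 6.60e-07, edgeR), so that it was present in S-led cells and higher in G2/M-led ones. Cdk5rap2 stood at 170 and 167 CPM against 77.3 and 93.6 CPM (0.97 ± 0.20, adjusted p = 0.00604, edgeR), a call lost with DESeq2 (adjusted p = 0.0902) and under a stricter cycling limit (adjusted p = 0.113).

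The 6 other genes did not pass the test between the phases. Stil stood at 46.4 and 23.9 CPM in S-led and 65.0 and 39.9 CPM in G2/M-led RGCs, and its libraries overlapped (0.59 ± 0.35, adjusted p = 0.397, edgeR). The centriole genes Cenpj (-0.31 ± 0.31) and Cep152 (-0.22 ± 0.42) had negative differences, Mcph1 (0.35 ± 0.25) and Cep135 (0.59 ± 0.30) small positive ones, and Wdr62 1.29 ± 0.51 on 8 UMIs in the S-led cells. Of the related lists, all 8 cytokinesis partners of Kif14 and 8 of 13 partners of Knl1 were higher in G2/M-led RGCs, where 3.5% of all genes were. In the list of centriole duplication and pericentriolar material it was 1 of 19 genes, near that share of all genes.

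In IPCs (32 and 32 S-led, 26 and 25 G2/M-led cells) 3 of 9 genes tested were higher in G2/M-led cells, against 3.7% of 6274 genes. These were Aspm, with 355 and 395 CPM against 10.2 and 29.0 CPM (4.27 ± 0.34, adjusted p = 1.41e-06, edgeR), Knl1, with 406 and 355 CPM against 35.8 and 87.1 CPM (2.66 ± 0.31, adjusted p = 4.54e-05, edgeR), and Kif14, with 31 and 29 UMIs against none, at least 22.8-fold higher. Cdk5rap2 stood at 268 and 141 CPM against 94.7 and 125 CPM, did not pass (0.94 ± 0.31, adjusted p = 0.0910, edgeR) and passed with the library as a block (adjusted p = 0.00837), without the filter on low counts (adjusted p = 0.00914) and in a single fit of all classes (adjusted p = 0.0133). Its difference was 1.51 within WT replicate 1 and 0.16 within WT replicate 6. Wdr62 was too low to be tested.

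**Figure D4:**
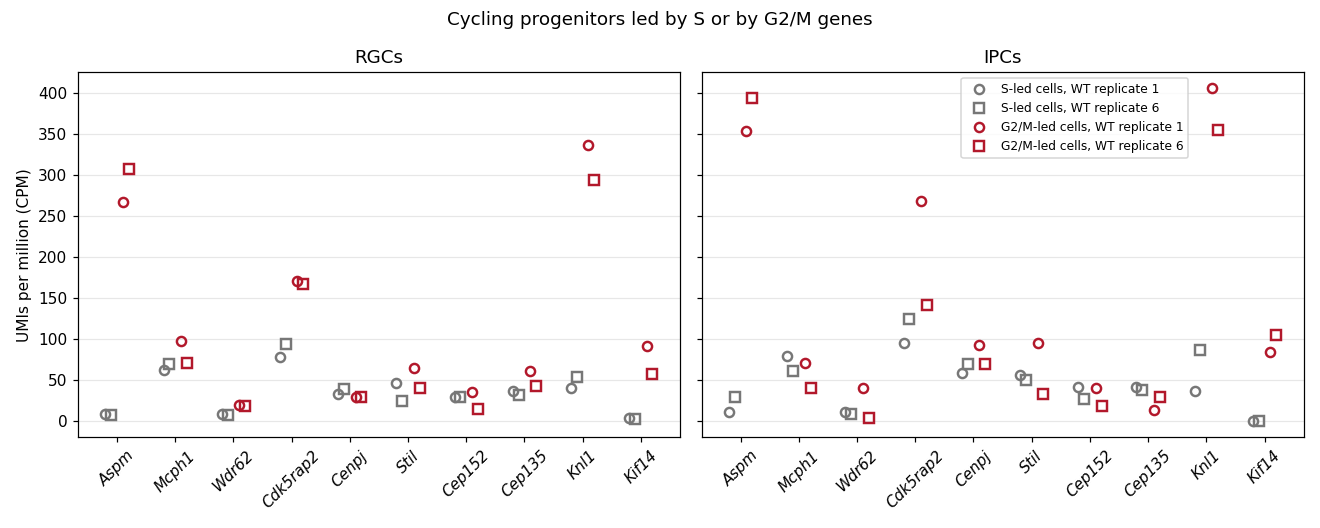
Levels in CPM of the 10 genes in S-led (grey) and G2/M-led (red) cycling RGCs and IPCs, with circles for WT replicate 1 and squares for WT replicate 6. Aspm, Knl1 and Kif14 separate by phase in both progenitor types, whereas the values of Cenpj, Stil, Cep152 and Mcph1 lie near each other or overlap.

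All 10 genes being higher in cycling cells, the 250 bases upstream of the RefSeq transcript starts (GRCm38.p6) were searched for letters known from cell cycle promoters. These were CCAAT, the cell cycle homology region (TTTGAA or TTCGAA) and E2F sites (TTTGGCGC, TTTCCCGC or TTTCGCGC), on both strands. A match describes letters and not a bound site. Of the 9 genes matched in the table (not Mcph1), with 10 windows because Wdr62 has a pair of overlapping ones, 6 held CCAAT (33.8% of 32851 upstream windows), 2 the homology region (17.1%) and 1, Wdr62, an E2F site (1.53%). The counts are of genes and the shares are of windows. For Aspm, Wdr62, Cenpj and Kif14 the windows lay wholly inside the limits of the gene, and Kif14 holds 1 of the 2 homology region matches. The windows of Aspm, Wdr62, Stil and Cep152 held CCAAT 3 times each, those of Kif14 and Cep135 at 1 position each, and those of Knl1, Cdk5rap2 and Cenpj had none of the letters searched. The 3 genes whose window lay outside the limits of the gene, but for 10 bases in Stil, are shown to set genes found almost wholly in cycling cells (Stil and Knl1) beside a gene spread over all classes (Cdk5rap2), 5′ to 3′ along the gene with matches in capitals: Stil at chr4:114999868-115000117 on the plus strand, Knl1 at chr2:119046869-119047118 on the plus strand, and Cdk5rap2 at chr4:70410436-70410685 on the minus strand.
Stil: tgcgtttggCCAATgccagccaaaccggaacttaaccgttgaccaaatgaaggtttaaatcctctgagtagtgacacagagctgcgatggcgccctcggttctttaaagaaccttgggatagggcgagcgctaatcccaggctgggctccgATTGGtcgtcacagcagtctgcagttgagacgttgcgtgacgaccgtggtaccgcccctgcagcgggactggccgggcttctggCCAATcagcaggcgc
Knl1: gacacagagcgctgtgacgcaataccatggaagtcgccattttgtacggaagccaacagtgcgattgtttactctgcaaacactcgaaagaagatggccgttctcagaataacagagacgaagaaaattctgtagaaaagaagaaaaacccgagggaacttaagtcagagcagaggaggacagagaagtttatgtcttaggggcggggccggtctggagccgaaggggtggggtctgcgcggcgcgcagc
Cdk5rap2: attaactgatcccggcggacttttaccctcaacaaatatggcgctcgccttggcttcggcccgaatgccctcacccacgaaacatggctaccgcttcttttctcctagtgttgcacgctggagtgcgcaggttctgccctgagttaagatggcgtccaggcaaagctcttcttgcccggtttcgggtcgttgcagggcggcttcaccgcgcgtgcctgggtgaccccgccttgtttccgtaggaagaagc
The capitals in Stil mark CCAAT or its reverse complement at 241 to 237, 99 to 95 and 15 to 11 bases before the start. The windows of Knl1 and Cdk5rap2 hold no match. Whether these letters bear on the levels was not tested.

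The next comparison set progenitor types against each other at the same cycling state. Between cycling RGCs and cycling IPCs, 1 of the 10 genes was called lower in RGCs, against 9.06% of 10569 genes, and none was called higher. This count is near that share of all genes, so it says nothing particular about the 10 genes as a set. That gene was Cenpj, with 31.6 and 30.6 CPM in cycling RGCs and 78.1 and 64.6 CPM in cycling IPCs (log2 difference -1.24 ± 0.20, adjusted p = 0.000428, edgeR; adjusted p = 0.00612 with DESeq2). The libraries did not overlap, and the difference was -1.33 within WT replicate 1 and -1.10 within WT replicate 6. In G2/M-led cells alone it was -1.53 ± 0.30 (adjusted p = 0.00476, edgeR), and in S-led cells alone -0.82 ± 0.33 (adjusted p = 0.152, edgeR). The log2 differences of the other 9 genes ran from -0.39 for Stil to 0.17 for Cep135, and that of Aspm was -0.05 ± 0.14. The S phase genes summed to 23.0 and 27.6 per 10000 UMIs in cycling RGCs and 37.1 and 39.4 in cycling IPCs, and the G2/M genes to 89.5 and 85.1 against 90.4 and 83.4, and their part in the Cenpj difference was not tested.

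Cycling RGCs were lower than cycling eminence progenitors in 7 of the 10 genes, against 14.5% of 11242 genes, and higher in none. Cenpj again showed the largest difference, with 54.9 and 87.2 CPM in the eminence cells (-1.23 ± 0.23, adjusted p = 0.00188, edgeR). Wdr62 stood at 15.3 and 13.7 CPM in RGCs and 21.6 and 27.2 CPM in eminence cells (-0.79 ± 0.25, adjusted p = 0.0333, edgeR), and Stil at 59.4 and 45.3 against 80.3 and 91.0 CPM (-0.75 ± 0.17, adjusted p = 0.00696, edgeR). Cep152 (-0.71 ± 0.21), Kif14 (-0.60 ± 0.20), Knl1 (-0.49 ± 0.14) and Cdk5rap2 (-0.36 ± 0.12) followed, with adjusted p between 0.0183 and 0.0472 (edgeR). Aspm (-0.27 ± 0.12, adjusted p = 0.118) and Mcph1 (-0.34 ± 0.16, adjusted p = 0.125) did not pass, but did so with the library as a block (adjusted p = 0.0297 and 0.0490, edgeR).

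The cycling genes moved with this result: the G2/M genes summed to 89.5 and 85.1 per 10000 UMIs in cycling RGCs and 103 and 104 in cycling eminence progenitors, and the S phase genes to 23.0 and 27.6 against 35.3 and 39.6. Their part in the result was not tested, but the values within phases were taken. In G2/M-led cells Cenpj (-1.37 ± 0.27), Stil (-0.97 ± 0.26), Kif14 (-0.79 ± 0.24), Knl1 (-0.62 ± 0.15) and Aspm (-0.55 ± 0.15) were lower in RGCs (adjusted p between 0.00568 and 0.0375, edgeR). In S-led cells 7 genes were tested (not Aspm, Wdr62 and Kif14), and only Knl1 was called (-0.87 ± 0.28, adjusted p = 0.0476, edgeR). With DESeq2, 2 genes were called, Cenpj and Stil, and these were called under each of the other alternatives that kept both phases. The other 5 genes each lost their call with DESeq2 and with at least 1 further alternative, and Aspm passed in a single fit of all classes (adjusted p = 0.0483, edgeR).

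**Figure D5:**
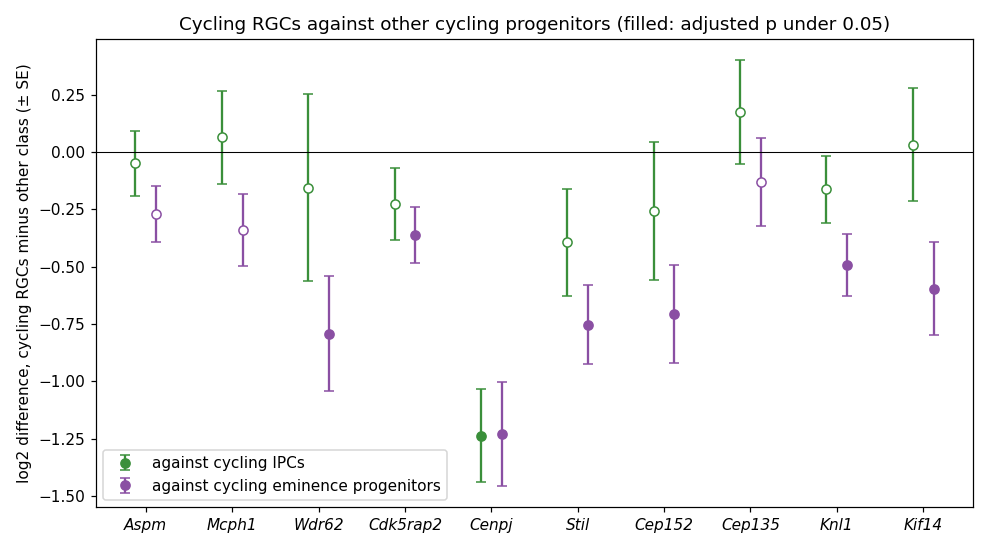
Points give the edgeR log2 difference, with its standard error, of cycling RGCs minus cycling IPCs and minus cycling eminence progenitors, and filled points passed an adjusted p of 0.05. Cenpj lies at -1.24 and -1.23 in the respective comparisons, while Aspm lies at -0.05 and -0.27.

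Cells that were not cycling were compared between non-cycling RGCs and excitatory neurons. Of 9 genes tested (Kif14 was too low), 3 were lower in RGCs, against 22.7% of 15261 genes, and 1 was higher, against 21.2%. Both shares of all genes are large, so such calls were common between these classes. Cenpj stood at 7.12 and 9.56 CPM in non-cycling RGCs and 19.2 and 20.1 CPM in excitatory neurons (-1.44 ± 0.26, adjusted p = 0.00391, edgeR). Cdk5rap2 stood at 43.9 and 57.3 CPM against 69.7 and 72.4 CPM (-0.69 ± 0.14, adjusted p = 0.00678, edgeR). In both genes the neurons lay above the non-cycling radial glia in each library. Mcph1 had 33.2 and 31.1 against 39.6 and 40.1 CPM (-0.51 ± 0.14, adjusted p = 0.0269, edgeR), a call lost with DESeq2 (adjusted p = 0.0662), without TMM factors (adjusted p = 0.182) and in a single fit of all classes (adjusted p = 0.105). Cep135 went the other way, with 22.5 and 20.3 CPM in RGCs and 11.3 and 12.1 CPM in neurons (0.68 ± 0.22, adjusted p = 0.0412, edgeR), and was lost with the library as a block (adjusted p = 0.0682), with DESeq2 (adjusted p = 0.05002), without the filter on low counts (adjusted p = 0.102) and under the stricter cycling limit (adjusted p = 0.0703). Without TMM factors the median of all genes moved from -0.09 to 0.11, and 3951 genes were higher and 2538 lower, in place of 3234 and 3460.

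Between the neuron classes, 9 genes were tested, and 1 was higher and 2 were lower in excitatory neurons. These counts are near or below the large shares of all genes given below, so such calls were common between these classes. Cdk5rap2 was higher in excitatory neurons (69.7 and 72.4 against 48.3 and 55.7 CPM, 0.53 ± 0.08, adjusted p = 0.00146, edgeR), against 21.7% of 15640 genes. Mcph1 (39.6 and 40.1 against 55.7 and 54.0 CPM, -0.38 ± 0.07, adjusted p = 0.00429) and Knl1 (2.02 and 1.32 against 4.24 and 4.18 CPM, -1.25 ± 0.31, adjusted p = 0.0145) were lower, against 20.8% (edgeR). Cenpj stood at 19.2 and 20.1 CPM in excitatory and 20.1 and 20.9 CPM in inhibitory neurons (0.02 ± 0.10, adjusted p = 0.868, edgeR). The Knl1 values rest on 46 and 31 UMIs in excitatory and 27 and 23 in inhibitory neurons, and its call was lost under a stricter cycling limit (adjusted p = 0.0847), in cells of 3000 to 30000 UMIs with under 5% mitochondrial UMIs (adjusted p = 0.0596) and with 1 more class marker required (adjusted p = 0.0514). The call of Mcph1 was lost in a single fit of all classes (adjusted p = 0.0572, edgeR). Without TMM factors 2650 genes were higher and 3882 lower in excitatory neurons, in place of 3396 and 3248.

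Ordered by mean level over the 8 classes, the 3 cycling progenitor classes held the upper 3 places for every gene. Cycling eminence progenitors had the highest mean for all genes but Cenpj, and lay above the next class in both libraries for Aspm, Mcph1, Knl1 and Kif14. For Wdr62, Cdk5rap2, Stil, Cep152 and Cep135 they did not lie above the next class in both libraries. How often other genes show such an order or separation was not counted, so these places describe the 10 genes only. For Cenpj, cycling IPCs (71.3 ± 9.55 CPM, SD, n = 2) and cycling eminence progenitors (71.1 ± 22.8 CPM) overlapped. For Cdk5rap2, non-cycling IPCs (78.9 ± 1.08 CPM) came next and lay above excitatory neurons (71.1 ± 1.92 CPM) in both libraries, while inhibitory neurons (52.0 ± 5.19) and non-cycling RGCs (50.6 ± 9.51) overlapped at the low end. Cenpj also had non-cycling IPCs next in order, at 25.8 ± 2.11 CPM, and its lowest level in non-cycling RGCs (8.34 ± 1.73 CPM).

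The genes with the most similar pattern were sought by Pearson's r of log2 CPM over 28 sums of 14 cell classes in each library, among 13296 genes with at least 200 UMIs. Such an r describes classes that share libraries and depth, and the progenitor classes were split by the cycling limit. Tpx2, named below, is among the genes that set that limit. How high r runs among cycling transcripts in general was not counted. For Aspm these were Cenpe, Melk and Shcbp1 (r = 0.97 each), for Kif14 Troap, Dlgap5 and Esco2 (0.98, 0.97 and 0.96), for Knl1 Cenph, Tpx2 and Ckap2l (0.97 each), for Stil Cenpi, Aspm and Ndc80 (0.97, 0.96 and 0.95) and for Wdr62 Ndc80, Stil and Aspm (0.93, 0.93 and 0.92). The more widely expressed genes had other neighbours. These were Ezh2, Ubald2 and Snrpd1 for Cenpj (0.94, 0.93 and 0.92), Hnrnpdl and Hnrnpr for Cdk5rap2 (0.95 each), Terf1, Asxl1 and 1600010M07Rik for Mcph1 (0.91 each), Lin54, Sass6 and Wdhd1 for Cep152 (0.90, 0.89 and 0.88) and Kif24, Ruvbl2 and Lsm5 for Cep135 (0.90, 0.89 and 0.89).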

How the data were processed

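Per the submitters' processing notes, the authors used Cell Ranger 7.0.0 and mm10. What they deposited were whole-number UMI counts, not normalized. Whether intronic reads were counted is not given in the sources used here, and each gene was therefore compared only with itself between classes.

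Cells were gated by marker genes, and UMIs were summed per class and library (366396 to 23482203 UMIs per sum of the 8 classes). Sums of the classes compared were tested with edgeR 4.0.16 (TMM, filterByExpr, quasi-likelihood F-test, Benjamini-Hochberg over all genes tested) and, as an alternative, DESeq2 1.42.0. Doublets, scored with Scrublet in scanpy 1.11.5, were kept in the main analysis and left out in an alternative. Some cells past the cycling limit fell into no class, so the 8 classes held 1011 and 918 of the 2178 and 1783 UMIs of Aspm. Excitatory and inhibitory gates leave out cells past the limit. The tests were run on simulated data before use. Ratios carry exact 95% counting intervals, and intervals and floors cover counting error only. Positions and upstream sequences come from RefSeq on GRCm38.p6, the same build as mm10.

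Classes of 1 library come from the same preparation, so the library pairs them; deviations from the class means correlated within libraries at r = 0.09 to 0.31, and the fit with the library as a block was an alternative. Nothing in the labels says whether a library held 1 embryo or several. The p-values rest on the spread between these 2 libraries, which differed in the sex of the tissue. Differences of technique, sex and embryo cannot be told apart in that spread. Members and gene lists were chosen with earlier results of these data known, and the within-phase comparisons of progenitor types were added after seeing the data. All 10 genes were named, and of each list the 2 called genes with the largest difference in each direction in cycling against non-cycling RGCs. Of the genes most similar to each member, up to 3 were named. A further condition of the eminence gate and a gene similar to Cdk5rap2 are not reported here. Of the list genes, Trappc14 was not matched by its symbol.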

Additional observations from a re-analysis of the deposited data

How the results depend on the processing

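Across the 10 comparisons and their alternatives, 86 of 94 counts of called genes stayed within 1.5 times the main count, and no difference of a gene that was called reversed. Against cycling eminence progenitors, 7 genes were called lower in cycling RGCs, but 2 with DESeq2, 4 in cells of 3000 to 30000 UMIs with under 5% mitochondrial UMIs, 3 under the stricter cycling limit, 3 with 1 more class marker required and 1 in S-led cells. Cycling RGCs against IPCs gave 0 in S-led cells in place of 1. Non-cycling RGCs against excitatory neurons gave 2 with DESeq2 in place of 4, and the neuron classes gave 5 without TMM factors in place of 3. The causes were not tested. The narrower settings also held fewer cells, and the part of cell number was not tested either. Leaving out likely doublets changed no call. The library as a block changed no call beyond those of Aspm, Mcph1, Cep135 and Cdk5rap2 given above.

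Without WT replicate 1 or WT replicate 6, no test was possible and only the log2 difference in the remaining library was taken, so there is no count of calls. Genes with few UMIs, Wdr62 above all, limit what these libraries can show. Thinning to 2000 UMIs moved 72 of 80 shares of cells with a UMI by more than the SD between libraries. Thinning removes UMIs, so a fall in these shares was built in, and the count does not measure how stable the results are.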

Other observations

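Outside the neural classes, Cep152 stood at 30.0 and 30.2 CPM in microglia of WT replicate 1 and WT replicate 6, on 16 and 20 UMIs in 64 and 81 cells, against 9.0 and 6.9 CPM in excitatory neurons and 32.2 and 23.7 CPM in cycling RGCs. The cells were picked by microglial markers, and this gene was singled out after its values were seen. Without likely doublets the level was 31.9 and 37.4 CPM (57 and 70 cells), and in the 50 and 65 cells with under 15 cycling-gene UMIs per 10000 it was 30.9 and 33.2 CPM. The proliferation gene Mki67 stood at 16.9 and 13.6 CPM in all 64 and 81 microglia, and Top2a at 22.5 and 15.1 CPM. In the 50 and 65 cells with few cycling-gene UMIs, Mki67 stood at 15.4 and 2.08 CPM and Top2a at 19.8 and 6.23 CPM. In the 64 and 81 microglia, Knl1 had 0 and 2 UMIs, Aspm 4 and 2, Wdr62 4 and 0, Stil 3 and 0, and Kif14 0 and 0. Whether cycling cells bear on the Cep152 level was not tested. In the other non-neural classes of at least 50 cells a library, Cep152 ranged from 0.96 CPM in erythroid cells to 11.7 CPM in endothelial cells. Oligodendrocyte precursors, 18 cells in each library, held Cdk5rap2 at 92.2 and 89.4 CPM and Mcph1 at 65.1 and 59.6 CPM, on 12 to 18 UMIs per gene and library. Cep152 stood at 27.1 and 9.93 CPM in these precursors, on only 5 and 2 UMIs, so its level in WT replicate 1 was near that of microglia.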
